A study of Mus musculus with 5 samples.

Results

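The enzymes of the methionine cycle, transsulfuration and taurine synthesis were examined in single hepatocytes of mice fed a regular or a high fat diet. The set was fixed by gene symbol and holds Mat1a, Gnmt, Ahcy, Bhmt, Bhmt2, Pemt, Cbs, Cth, Cdo1 and Csad. All 10 were found among the 18018 genes of the table. Male C57BL/6J littermates aged 8 weeks received the regular diet (LFD, 2 mice) or the high fat diet (HFD, 3 mice) over 12 weeks, and their hepatocytes were profiled by Drop-seq. In this droplet method each captured mRNA molecule is counted by its identifier tag (UMI) within a cell barcode. The labels give the composition of neither diet, so LFD is used here only as their name for the regular diet, and no genetic change or drug is named for any group. Which genes of the hepatocyte respond to the high fat diet is the question the design poses.

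The methionine cycle makes S-adenosylmethionine, the methyl donor of the cell. Mat1a is the liver's methionine adenosyltransferase and forms it, Gnmt and Pemt spend it on glycine and on phosphatidylethanolamine, and Ahcy hydrolyses the resulting S-adenosylhomocysteine to homocysteine. Homocysteine is either methylated back to methionine, with betaine as the donor for Bhmt, or passed to cysteine by transsulfuration through Cbs and Cth. Cdo1 oxidises cysteine to its sulfinate, which Csad decarboxylates on the way to taurine, the amino acid conjugated to bile acids in the mouse liver. The liver lobule is divided in these tasks along the axis from the portal vein (periportal side) to the central vein (pericentral side).

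The table held 454 cells and 1499094 UMIs. LFD mice 1 and 2 gave 132 and 84 cells, and HFD mice 1, 2 and 3 gave 5, 208 and 25 cells, with totals from 27903 UMIs in HFD mouse 1 to 656803 in HFD mouse 2. No cell barcode was shared between mice. All 25 hepatocyte markers were found in over 50% of the cells of every mouse. Markers of other cell types were scattered: macrophage, stellate, cholangiocyte, T or NK and B cell lists summed to at most 42.5 CPM (UMIs scaled to 1000000 in each mouse). HFD mouse 1 stood apart. Of its 5 barcodes, 3 held 16804 of its UMIs but only 369 to 636 genes each, sinusoidal endothelial markers summed to 1075 CPM against 17.9 to 34.2 CPM elsewhere, and erythroid markers to 502 CPM. Erythroid markers reached 291 CPM in HFD mouse 3 and at most 13.7 CPM in the other 3 mice. In HFD mouse 2, 6 barcodes with 53078 UMIs also held few genes for their UMIs, from 743 to 1662 genes each. Results are therefore given for 5 mice and without HFD mouse 1. The raw reads of HFD mouse 3 are named in a form of their own in the labels, so the comparison without it is the one among reads named alike.

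Summed over the 10 genes, the level was 8994 and 9322 CPM in LFD mice 1 and 2, against 7598, 8045 and 7953 CPM on the high fat diet (HFD mice 1, 2 and 3). Every HFD mouse lay below both LFD mice in this sum, of which Gnmt is the largest part in the LFD mice. Gnmt alone was at 3739 and 3207 CPM in LFD mice 1 and 2 and at 1290.2, 1794 and 1916 CPM in HFD mice 1, 2 and 3. In the fit of 5 mice given below, 4 members lay above and 6 below 0, so the sum does not describe each gene. Drop-seq reads the 3′ end of a molecule, so CPM is not divided by gene length, and levels of different genes also carry differences in capture. In LFD mice the order of mean CPM was Gnmt (3473 ± 377, SD, n = 2), Mat1a (1652 ± 254), Bhmt (1586 ± 392), Cdo1 (797 ± 47.1), Cth (446 ± 0.854), Pemt (425 ± 38.2), Cbs (256 ± 4.23), Ahcy (249.8 ± 8.27), Csad (155 ± 32.5) and Bhmt2 (118 ± 2.37). The ranges of the LFD mice overlapped between Mat1a and Bhmt, between Cth and Pemt and between Cbs and Ahcy, and the other neighbours in this order were separate. In HFD mice the order began with Mat1a (2485 ± 218, n = 3), followed by Gnmt (1666 ± 331), Bhmt (807 ± 676), Cdo1 (795 ± 273), Csad (768 ± 641), Cbs (514 ± 611), Pemt (349 ± 61.9), Cth (209 ± 88.8), Ahcy (158 ± 46.9) and Bhmt2 (115 ± 37.2). There, Mat1a was separate from Gnmt and Pemt from Cth, and every other pair of neighbours overlapped. Gnmt therefore led in both LFD mice and Mat1a in all 3 HFD mice.

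**Figure D1:**
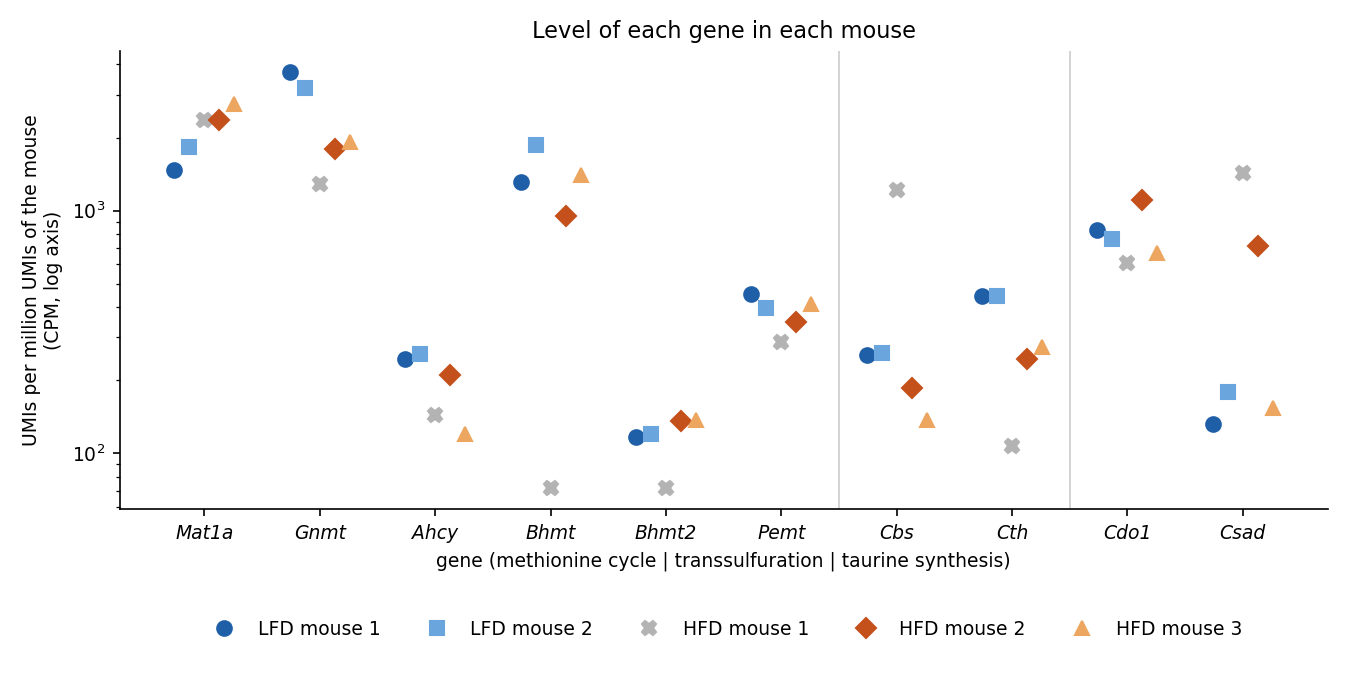
Level of each of the 10 genes in each mouse, in CPM on a log axis. Each point is 1 mouse, LFD in blue, HFD mouse 1 in grey and HFD mice 2 and 3 in orange tones. Gnmt lay at 3739 and 3207 CPM in the LFD mice and from 1290.2 to 1916 CPM in the HFD mice, and the points of HFD mouse 1 (5 barcodes) lay farthest from the rest for Bhmt and Cbs.

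Promoter windows were found for 7 of the 10 genes in RefSeq (250 bases before to 50 bases after a start, GRCm38.p6), in 9 windows. Those of Gnmt, the most abundant gene on the regular diet, of the paralogs Bhmt and Bhmt2, which differ widely in level, and of Csad, whose level varied most along the lobule, are shown 5′ to 3′ with a CCAAT box (CCAAT) or a GC box (GGGCGG), on either strand, in capitals. No 2 capital runs overlap.
Gnmt, chr17:46729116-46729415, minus strand: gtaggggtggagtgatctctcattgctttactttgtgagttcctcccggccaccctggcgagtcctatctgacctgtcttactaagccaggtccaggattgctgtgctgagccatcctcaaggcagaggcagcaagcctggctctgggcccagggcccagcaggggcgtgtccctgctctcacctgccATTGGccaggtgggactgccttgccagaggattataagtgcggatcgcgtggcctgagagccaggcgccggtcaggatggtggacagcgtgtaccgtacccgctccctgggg
Bhmt, chr13:93637709-93638008, minus strand: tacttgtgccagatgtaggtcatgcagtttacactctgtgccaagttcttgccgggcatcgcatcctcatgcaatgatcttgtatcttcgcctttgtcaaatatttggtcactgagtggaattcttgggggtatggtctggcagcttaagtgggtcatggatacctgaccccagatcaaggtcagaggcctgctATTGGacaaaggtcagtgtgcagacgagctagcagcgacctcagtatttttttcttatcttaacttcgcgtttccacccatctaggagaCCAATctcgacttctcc
Bhmt2, chr13:93674253-93674552, minus strand: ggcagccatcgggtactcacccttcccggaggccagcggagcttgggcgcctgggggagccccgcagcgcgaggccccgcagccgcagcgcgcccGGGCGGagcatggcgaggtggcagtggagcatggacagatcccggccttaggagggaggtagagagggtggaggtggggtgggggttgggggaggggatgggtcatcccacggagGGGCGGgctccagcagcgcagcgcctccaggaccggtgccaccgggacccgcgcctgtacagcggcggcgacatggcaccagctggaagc
Csad, chr15:102205003-102205302, minus strand: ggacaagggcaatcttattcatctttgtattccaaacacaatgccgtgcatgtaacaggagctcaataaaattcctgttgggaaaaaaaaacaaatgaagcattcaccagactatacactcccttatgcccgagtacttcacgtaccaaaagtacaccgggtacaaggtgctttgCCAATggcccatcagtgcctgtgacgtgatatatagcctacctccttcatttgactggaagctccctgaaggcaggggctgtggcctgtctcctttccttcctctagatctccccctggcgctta
Csad, chr15:102188994-102189293, minus strand: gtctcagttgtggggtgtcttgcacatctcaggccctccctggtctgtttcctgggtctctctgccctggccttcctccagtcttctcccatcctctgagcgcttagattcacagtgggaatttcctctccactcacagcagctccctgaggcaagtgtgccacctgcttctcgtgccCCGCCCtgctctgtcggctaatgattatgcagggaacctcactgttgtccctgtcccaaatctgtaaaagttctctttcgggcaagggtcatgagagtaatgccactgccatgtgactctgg
A CCAAT box was present in 6 of the 9 windows and in 37.4% of all 32851 RefSeq windows. A GC box was present in 4 of the 9 and in 35.7% of all. The TATA box letters TATAAA were in none of the 9 windows and in 13.6% of all, on either strand. The windows of the paralogs were unlike: that of Bhmt held 48.0% G or C and 8 CG pairs, that of Bhmt2 73.7% and 26, beside medians of 52.7% and 7 over all windows. A 3′ read does not tell which of the Csad starts was used.

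Bhmt, betaine-homocysteine methyltransferase, and its paralog Bhmt2, which uses S-methylmethionine, lie on chromosome 13. Bhmt gave 585 and 576 UMIs in LFD mice 1 and 2 and 2, 622 and 82 UMIs in HFD mice 1, 2 and 3. Bhmt2 gave 52 and 37 UMIs in the LFD mice and 2, 89 and 8 UMIs in the HFD mice. In the 4 mice other than HFD mouse 1, Bhmt had from 6.99 to 15.6 UMIs for each UMI of Bhmt2. The counting of reads shared by these similar genes, not given in the sources used here, could place a part of either count with the other.

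Between the diets, the enzymes that spend and remake S-adenosylmethionine did not move as a block, and in the fit of all 5 mice no member passed the test. Gnmt and Cth were lower and Csad was higher in HFD mice at an unadjusted p under 0.05, as were 5.17% of all 3614 genes tested. With Benjamini-Hochberg adjustment over all genes, limma voom called 0 of the 10 members and 0.221% of all genes, and limma-trend called 0 of either. The median log2 difference (HFD over LFD) of the 10 members was -0.18, beside -0.06 over all genes tested. Of the members, 4 lay above and 6 below 0.

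Gnmt, glycine N-methyltransferase, which disposes of excess S-adenosylmethionine, was at 3739 and 3207 CPM in LFD mice 1 and 2 and at 1290.2, 1794 and 1916 CPM in HFD mice 1, 2 and 3. Every HFD mouse was below both LFD mice. The log2 difference was -1.04 (SE 0.26) in 5 mice, with an adjusted p of 0.256 by limma voom. When HFD mouse 1 was left out, Gnmt fell by 0.94 on the log2 scale (SE 0.15, adjusted p = 0.00168), in a limma voom fit that called 3.35% of 3670 genes and 3 of the 10 members. Without the low complexity barcodes of both mice, the value was -1.21 with an adjusted p of 0.0745 (limma voom). Among reads named alike, without HFD mouse 3, it was -1.05 (adjusted p = 0.786). The direction held in each of these sets. Besides the set without HFD mouse 1, a minimum of 50 UMIs in place of 10 gave a call in 5 mice (-0.87, adjusted p = 0.0359, limma voom).

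Mat1a went the other way. Its level was 1472 and 1831 CPM in the LFD mice, against 2365, 2354 and 2736 CPM in HFD mice 1, 2 and 3, so that all HFD mice were above both LFD mice. The log2 difference was 0.56 (SE 0.26, adjusted p = 0.929, limma voom) in 5 mice and 0.58 (SE 0.15, adjusted p = 0.0516) without HFD mouse 1, so neither passed the test. Of the 10 members, Mat1a was the one with every HFD mouse above both LFD mice, as were 8.88% of all genes tested, and Gnmt, Ahcy and Cth were those with every HFD mouse below, as were 14.3%. The ratio of Mat1a to Gnmt UMIs, which needs no scaling by library size, was 0.394 and 0.571 in LFD mice 1 and 2 and 1.83, 1.31 and 1.43 in HFD mice 1, 2 and 3. The ratios of the diets did not overlap. This follows from Mat1a being above and Gnmt below in every HFD mouse, so the ratio is a description and no further support. With 2 against 3 mice the smallest two-sided exact permutation p is 0.2. Mat1a made up 16.4% and 19.6% of the members' UMIs in the LFD mice and 31.1%, 29.3% and 34.4% in the HFD mice. Gnmt made up 41.6% and 34.4% and then 17.0%, 22.3% and 24.1%.

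Among the other genes of the cycle the diets were not separated by the test. Bhmt was at 1309 and 1864 CPM in the LFD mice and at 71.7, 947 and 1402 CPM in the HFD mice, which overlap. Its log2 difference of -1.28 (SE 0.62, adjusted p = 0.968, limma voom) moved to -0.55 (SE 0.19, adjusted p = 0.131) without HFD mouse 1, where Bhmt had 2 UMIs. Ahcy, the hydrolase that removes S-adenosylhomocysteine, was at 244 and 256 CPM and then at 143, 210.1 and 119.7 CPM. Its HFD values were all below its LFD values, but they rested on 4, 138 and 7 UMIs, and the log2 difference was -0.55 (SE 0.43, adjusted p = 0.985, limma voom). Pemt, which makes phosphatidylcholine by methylation, had levels between 287 and 452 CPM and a log2 difference of -0.30 (SE 0.35). Bhmt2 had levels between 71.7 and 137 CPM and a log2 difference of 0.08 (SE 0.46), and the LFD and HFD ranges overlapped for both.

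Transsulfuration starts with Cbs, cystathionine beta-synthase, and ends with Cth, cystathionine gamma-lyase. Cth was at 445 and 447 CPM in the LFD mice and at 108, 245 and 274 CPM in HFD mice 1, 2 and 3, from 3, 161 and 16 UMIs. All HFD values were below the LFD values, which lay close together. The log2 difference was -1.04 (SE 0.40, adjusted p = 0.855, limma voom) in 5 mice, and without HFD mouse 1 Cth fell by 0.83 on the log2 scale (SE 0.19, adjusted p = 0.0249). Without the low complexity barcodes the value was -0.83 with an adjusted p of 0.337 (limma voom). Cbs was at 253 and 259 CPM in the LFD mice and at 1219, 186 and 137 CPM in the HFD mice. The high value belonged to HFD mouse 1, where 27 of the 34 Cbs UMIs came from a single barcode with 6598 UMIs and 636 genes. The log2 difference of Cbs was -0.05 (SE 0.61, adjusted p = 1.00, limma voom) with that mouse and -0.53 (SE 0.23, adjusted p = 0.226) without it.

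In taurine synthesis, Csad, cysteine sulfinic acid decarboxylase, was at 132 and 178 CPM in the LFD mice and at 1434, 717 and 154 CPM in HFD mice 1, 2 and 3. HFD mice 1 and 2 were far above the LFD mice, and HFD mouse 3 lay between them. In HFD mouse 1 all 40 Csad UMIs stood in a single barcode with 7481 UMIs and 469 genes. In HFD mouse 2, 471 UMIs were spread over 125 of 208 cells, with at most 24 in a cell, and the level without its low complexity barcodes was 759 CPM. The log2 difference was 1.92 (SE 0.67, adjusted p = 0.741, limma voom) in 5 mice and 1.73 (SE 0.41, adjusted p = 0.0268) without HFD mouse 1. That call rests on HFD mouse 2, since HFD mouse 3 (9 UMIs) was within the LFD range. Without the low complexity barcodes the value was 1.26 (adjusted p = 0.535, limma voom). Cdo1, cysteine dioxygenase, was at 830.2 and 764 CPM in the LFD mice and at 609, 1108 and 667 CPM in the HFD mice. The ranges overlapped, and its log2 difference was 0.13 (SE 0.35, adjusted p = 0.993, limma voom).

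**Figure D2:**
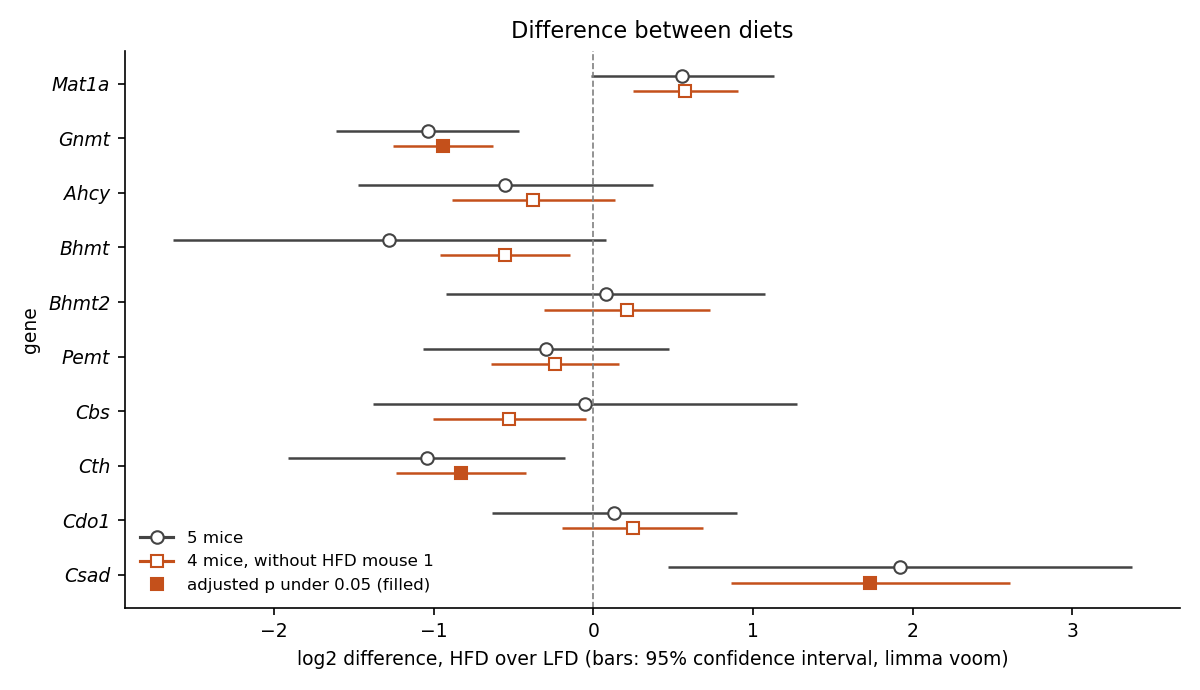
Log2 difference between diets (HFD over LFD) of each gene with its 95% confidence interval from limma voom, for 5 mice (circles) and for 4 mice without HFD mouse 1 (squares). Filled symbols have an adjusted p under 0.05. Gnmt (-0.94), Cth (-0.83) and Csad (1.73) are filled in the fit of 4 mice, and none is filled in the fit of 5.

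The share of cells with a UMI was compared beside the level. To compare shares of positive cells, each cell was thinned to 1728 UMIs and shallower cells were left out, which kept 114 of 132 and 74 of 84 cells of LFD mice 1 and 2 and 5 of 5, 134 of 208 and 14 of 25 cells of HFD mice 1, 2 and 3. Gnmt was then found in 99.1% and 100% of cells in the LFD mice and in 80%, 94.8% and 92.9% in the HFD mice. Every HFD mouse was below, yet the transcript was present in most cells on either diet. Before thinning the Gnmt shares were 100% and 98.8% in the LFD mice and 80%, 93.8% and 88.0% in the HFD mice.

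Cth was found in 47.4% and 59.5% of thinned cells of the LFD mice. In HFD mice 1, 2 and 3 it was in 40.0%, 33.6% and 35.7% (2 of 5, 45 of 134 and 5 of 14 cells), again without overlap. Before thinning its shares were 64.4% and 72.6%, and then 40.0%, 46.2% and 40.0%. Unthinned shares of Ahcy, Bhmt and Pemt were also lower in every HFD mouse than in both LFD mice, but their thinned shares overlapped between the diets. Unthinned shares depend on depth, and median UMIs per cell were 2734 and 3075.5 in LFD mice 1 and 2. In HFD mice 1, 2 and 3 these medians were 6598, 2181.5 and 1863. How many of all genes had a lower share in every HFD mouse, thinned or not, was not counted. Csad was found in 17.5% and 17.6% of thinned LFD cells, and in 20.0%, 56.0% and 7.14% of the thinned cells of HFD mice 1, 2 and 3. HFD mouse 2 was thus the mouse with the high share. Its unthinned share was 60.1% (exact 95% binomial interval 53.1% to 66.8%) against 31.8% (24.0% to 40.5%) in LFD mouse 1, 35.7% (25.6% to 46.9%) in LFD mouse 2 and 20.0% (6.83% to 40.7%) in HFD mouse 3. These intervals cover counting error only.

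Mat1a was in 80% to 100% of thinned cells in every mouse, with overlap between the diets. Bhmt was in 87.7% and 89.2% of thinned LFD cells and in 20.0%, 79.9% and 92.9% of HFD cells. The remaining shares ran from 28.6% to 44.6% for Ahcy, from 19.3% to 40.0% for Bhmt2, from 40.0% to 57.1% for Pemt, from 14.3% to 60.0% for Cbs and from 40.0% to 78.4% for Cdo1. The differences between the means of the diets gave two-sided exact permutation p values from 0.2 to 1, and 0.2 is the smallest that this design can give. Cells were not typed singly, and what free RNA adds to a share was not measured.

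**Figure D3:**
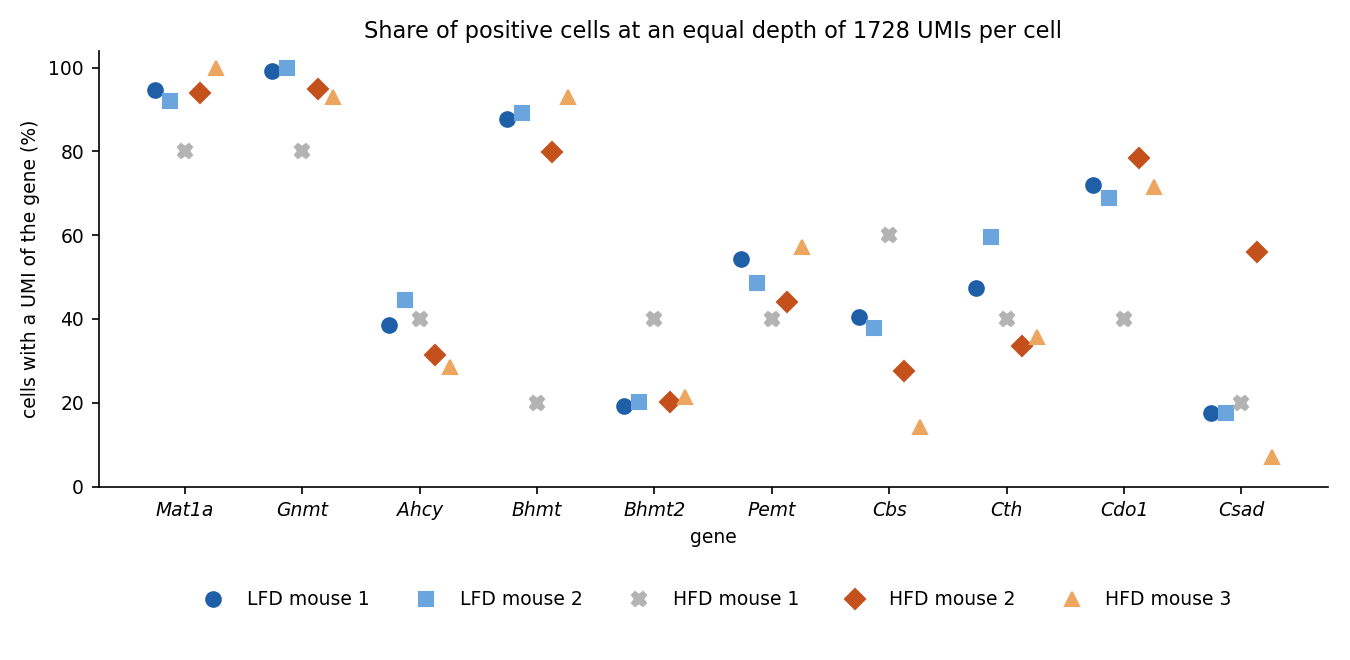
Percent of cells with a UMI of each gene after thinning every cell to 1728 UMIs. Each point is 1 mouse, with 5 cells in HFD mouse 1 and 14 in HFD mouse 3. Csad was at 56.0% in HFD mouse 2 and between 7.14% and 20.0% in the other mice.

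To place cells along the lobule, those of each mouse were ordered on 26 pericentral and 26 periportal transcripts, none of them a member, and divided at the median. This is a rank on transcripts and not a measured position. In the LFD mice the periportal cells were deeper, with median totals of 3436 and 3702 UMIs against 2155 and 2561 UMIs, so UMIs were summed per mouse and side and compared as CPM. The taurine genes were higher on the pericentral side and the transsulfuration genes on the periportal side in every mouse with at least 25 cells, although for Cdo1 and Cth of HFD mouse 3 by less than 0.1 on the log2 scale. Csad and Cbs of HFD mouse 3 rest on few UMIs (1 and 8, and 5 and 3, on the periportal and pericentral sides). In the fit of all 5 mice, limma voom called 0 of 1690 genes higher on the pericentral side (0%) and 0 on the periportal side (0%), with 86 at an unadjusted p under 0.05, among them 1 member, Csad. The count of calls by limma-trend was 0 as well. Over all genes tested, the median log2 difference (pericentral over periportal) was -0.31 with 5 mice and 0.01 without HFD mouse 1. Without HFD mouse 1, whose sides hold 3 and 2 barcodes, 2 members were called on the pericentral side, beside 3.13% of 2046 genes, and 1 member on the periportal side, beside 3.32%.

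Csad showed the widest difference. On the periportal and pericentral sides it was at 64.5 and 229 CPM in LFD mouse 1, at 62.9 and 364 CPM in LFD mouse 2, at 269 and 1078 CPM in HFD mouse 2 and at 34.7 and 270.1 CPM in HFD mouse 3. The last pair rests on 1 and 8 UMIs, and HFD mouse 1 had 0 and 40 UMIs, all in a single barcode. The pericentral side was higher in 5 of 5 mice, and the share of all genes with this direction in every mouse was not counted. The log2 difference (pericentral over periportal) was 2.58 (SE 0.56, adjusted p = 0.426, limma voom) with all mice, and without HFD mouse 1 Csad rose toward the central side by 1.97 (SE 0.20, adjusted p = 1.14e-09). With all 5 mice but without the low complexity barcodes, the value was 1.83 (adjusted p = 0.00735, limma voom), and without the 5% of cells with most UMIs it was 2.54 (adjusted p = 0.0418). Over 5 bins of cells from the periportal to the pericentral end, Csad was at 83.8, 48.8, 134, 164 and 327 CPM in LFD mouse 1. It was at 36.8, 67.1, 69.6, 497 and 384 CPM in LFD mouse 2, where the peak was the fourth bin, and at 217, 292, 428, 911 and 1489 CPM in HFD mouse 2. In the LFD mice its share of thinned positive cells was 9.68% and 2.50% on the periportal side against 26.9% and 35.3% on the pericentral side, and in HFD mouse 2 it was 37.7% against 71.2%.

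Cdo1, the step before Csad, was at 614 and 1141 CPM on the periportal and pericentral sides of LFD mouse 1, at 587 and 1049 CPM in LFD mouse 2, at 685 and 1450 CPM in HFD mouse 2 and at 659 and 675 CPM in HFD mouse 3. The difference was thus seen in the 3 mice with many cells and was near 0 in HFD mouse 3. HFD mouse 1 was the other way, with 10 and 7 UMIs. In the other 4 mice Cdo1 rose toward the central side by 0.78 on the log2 scale (SE 0.14, adjusted p = 1.13e-04, limma voom), and with HFD mouse 1 the value was 0.66 (SE 0.30, adjusted p = 0.733), or 0.57 (adjusted p = 0.522) without the low complexity barcodes. Across cells of a mouse, Cdo1 and Csad had Pearson correlations of 0.08, 0.22 and 0.41 in LFD mouse 1, LFD mouse 2 and HFD mouse 2, the last being the highest of the 45 member pairs in that mouse. Over all 45 pairs the medians in these mice were 0.04, 0.05 and 0.05, in sparse counts that share depth, and they are given as a description only.

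**Figure D4:**
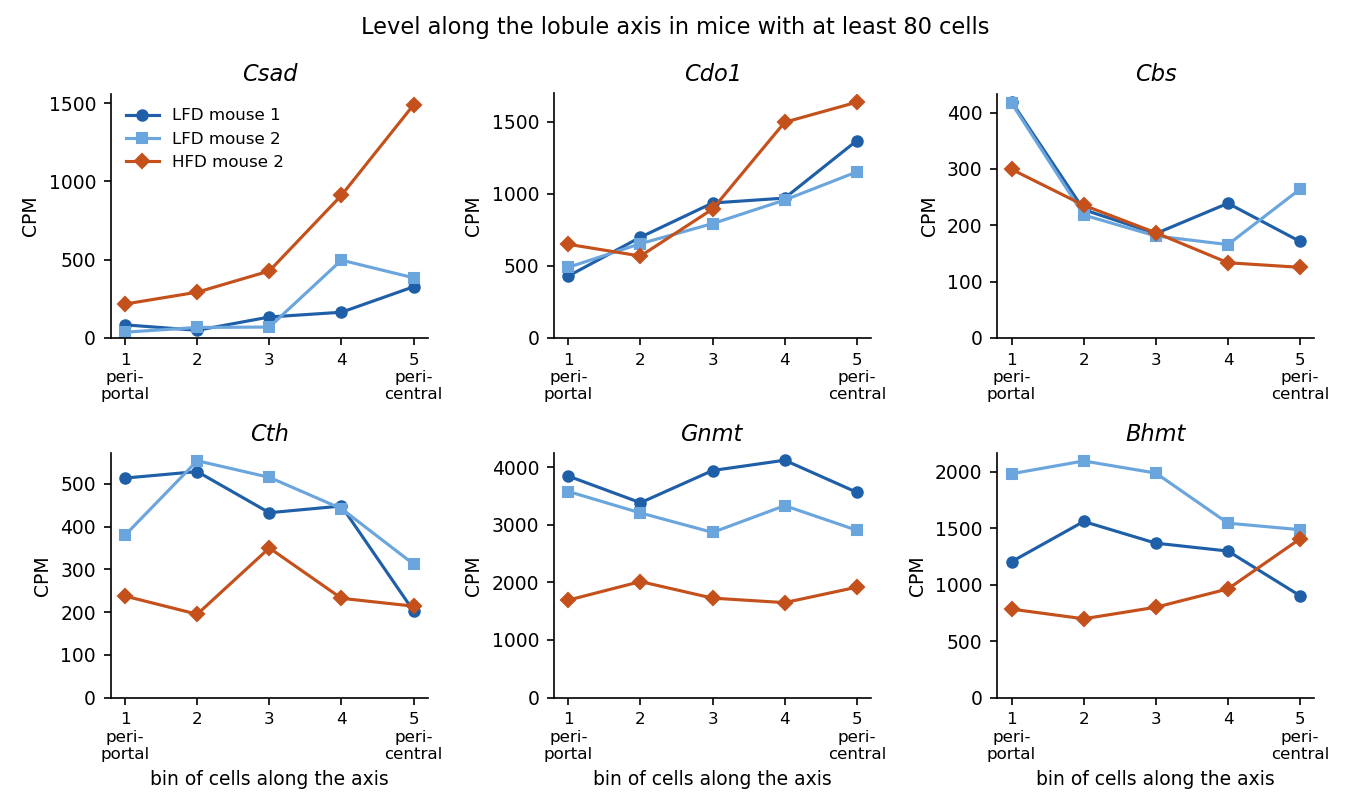
Level (CPM, axes starting at 0) of 6 genes in 5 bins of cells with equal cell number from the periportal end (bin 1) to the pericentral end (bin 5), in the 3 mice with at least 80 cells. Each point is the sum of 16 to 42 cells of 1 mouse. Csad is higher in bins 4 and 5 than in bins 1 to 3 in each mouse, with its peak in bin 4 in LFD mouse 2, Cdo1 is highest in bin 5 and Cbs in bin 1, and the Gnmt lines of the LFD mice stay above that of HFD mouse 2 in every bin.

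Cbs ran in the other direction. It was at 292 and 197 CPM on the periportal and pericentral sides of LFD mouse 1, at 304 and 186 CPM in LFD mouse 2, at 242 and 140.3 CPM in HFD mouse 2 and at 173 and 101 CPM in HFD mouse 3. The pericentral side was lower in each of these 4 mice, but the pair of HFD mouse 3 rests on 5 and 3 UMIs. HFD mouse 1 was opposite, with 7 and 27 UMIs, the 27 from a single barcode. In the 4 other mice Cbs fell by 0.78 on the log2 scale toward the central side (SE 0.20, adjusted p = 0.00873, limma voom), against -0.51 (SE 0.40, adjusted p = 0.733) with HFD mouse 1 and -0.73 (adjusted p = 0.337) without the low complexity barcodes of 5 mice. Its highest bin was the first in all 3 mice, at 419, 417 and 299 CPM. Cth had log2 differences of -0.47, -0.39, -0.25 and -0.04 in the LFD mice and HFD mice 2 and 3. The last rests on 8 and 8 UMIs, and HFD mouse 1 had 3 and 0 UMIs. The pericentral side was thus lower in 5 of 5 mice, but the share of all genes with this direction in every mouse was not counted. The fitted value without HFD mouse 1 was -0.46 (SE 0.17, adjusted p = 0.114, limma voom), which did not pass the test.

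The genes of the methionine cycle itself gave no call along the axis. Without HFD mouse 1, the limma voom log2 differences were 0.01 (95% interval -0.22 to 0.23) for Mat1a, -0.19 (-0.42 to 0.04) for Gnmt, 0.32 (-0.08 to 0.72) for Ahcy, -0.08 (-0.34 to 0.19) for Bhmt, -0.04 (-0.52 to 0.44) for Bhmt2 and 0.09 (-0.25 to 0.43) for Pemt. The intervals of Mat1a, Gnmt and Bhmt are narrow beside the values of Csad and Cdo1. Gnmt was lower on the high fat diet on both sides: the LFD mice had 3633 and 3311 CPM on the periportal side and 3893 and 3038 CPM on the pericentral side, and the HFD mice 1085 to 2253 CPM and 1492 to 1727 CPM. No HFD value reached an LFD value on either side, but the sides are parts of the same mice, which were already separate as a whole. In whole mice, 14.3% of all genes tested had every HFD mouse below both LFD mice, and the share on both sides was not counted. The lowest HFD values, 1085 and 1492 CPM, are those of HFD mouse 1, from 15 and 21 UMIs. Csad of HFD mouse 2 was above both LFD mice on the periportal side (269 against 64.5 and 62.9 CPM) and on the pericentral side (1078 against 229 and 364 CPM). This did not hold for HFD mouse 3, with 1 and 8 UMIs. Its periportal side was at 34.7 CPM, below both LFD mice, and its pericentral side at 270.1 CPM, between them. HFD mouse 1 had 0 and 40 UMIs, the 40 in a single barcode. The ratio of pericentral to periportal score UMIs was 0.435 and 0.399 in the LFD mice and 0.125, 0.541 and 0.409 in HFD mice 1, 2 and 3.

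**Figure D5:**
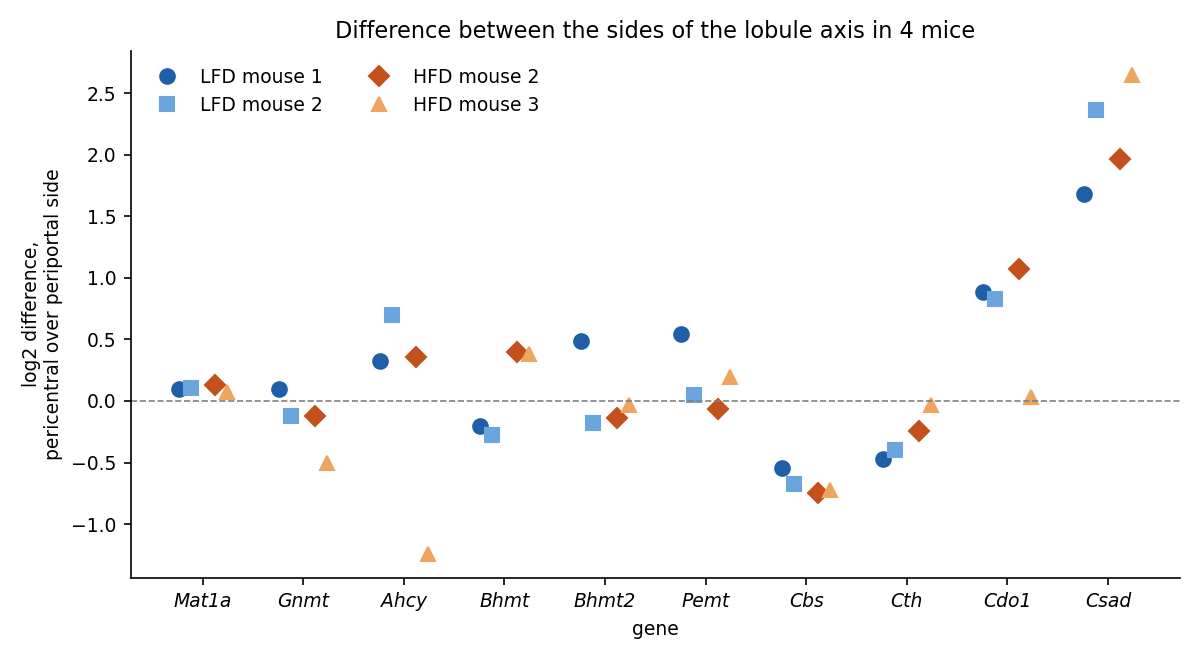
Log2 difference between the pericentral and the periportal side in each of 4 mice. HFD mouse 1 is not drawn because its sides hold 3 and 2 barcodes with several genes at 0 UMIs. Csad lies above 1.6 and Cbs below -0.5 in each of the 4 mice. In HFD mouse 3 the periportal and pericentral sides held only 1 and 8 UMIs of Csad and 5 and 3 UMIs of Cbs.

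Whether the side difference itself differed between diets was tested as an interaction. Limma voom called 0 of 1690 genes (0%) in 5 mice, with 6 at an unadjusted p under 0.05 and no member among them, and limma-trend called 0 as well. Without HFD mouse 1, 2 of 2046 genes were called, none a member, and 1 member had an unadjusted p under 0.05. This was Bhmt, at 1384 and 1201 CPM on the periportal and pericentral sides of LFD mouse 1, 1996 and 1650 CPM in LFD mouse 2, 805 and 1062 CPM in HFD mouse 2, and at 1213 and 1587 CPM in HFD mouse 3. The periportal side was the higher in both LFD mice and the lower in HFD mice 2 and 3, while in HFD mouse 1 Bhmt had 2 and 0 UMIs. The interaction was 0.64 (SE 0.24, adjusted p = 0.942, limma voom) and did not pass the test. For Csad it was -0.10 (95% interval -0.94 to 0.74) and for Cdo1 0.02 (-0.58 to 0.62). With HFD mouse 1 the values were -0.04 (SE 0.82) for Bhmt, 0.90 (SE 1.35) for Csad and -0.22 (SE 0.68) for Cdo1, each of the opposite sign. The median interaction over all genes tested also moved, from -0.01 without HFD mouse 1 to -0.57 with it, so these signs are not particular to the members.

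Genes of the adjoining pathways were read from 7 lists of 83 genes, of which 79 were in the table and 51 were tested for diet. In 5 mice none passed the test, 18 lay above and 33 below 0, and their median log2 difference was -0.28, beside -0.06 over all genes. Without HFD mouse 1, 3 of 48 were called lower and 1 higher, beside 76 lower and 47 higher (3.35% in all) of 3670 genes. Aldh1l1, the folate enzyme that oxidises formyl-tetrahydrofolate, fell by 0.98 on the log2 scale (adjusted p = 0.00415, limma voom), from 1182 and 1259 CPM in the LFD mice to 179, 565 and 804 CPM in HFD mice 1, 2 and 3. Every HFD mouse was below both LFD mice. The methyltransferases Inmt and Nnmt fell by 1.02 and 0.93 (adjusted p = 0.0250 and 0.0268, limma voom), but Nnmt of HFD mouse 1 was at 1111 CPM, above the 302 and 359 CPM of the LFD mice, and Inmt of HFD mouse 3 was at 496 CPM, within the LFD range of 479 to 642 CPM. Gclc, the catalytic subunit that begins glutathione synthesis from cysteine, rose by 0.89 (adjusted p = 0.0483, limma voom), from 159 and 175 CPM to 287, 339.5 and 222 CPM, with every HFD mouse above both LFD mice.

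In the lists without a call for diet, the 2 genes of highest level were Sardh and Aldh7a1 of choline and glycine oxidation, Sat1 and Adi1 of polyamine and methionine salvage, Got1 and Ethe1 of cysteine and sulfide catabolism, and Slc27a5 and Baat of bile acid conjugation. Their log2 differences in 5 mice ran from -0.82 (SE 0.41) for Slc27a5 to 1.02 (SE 0.65) for Sat1. Sat1 was at 394 CPM in HFD mouse 1 and from 38.0 to 68.4 CPM in the other mice. Without HFD mouse 1 its value was 0.53 (SE 0.33). Baat, which joins taurine to bile acids, was at 262 and 243 CPM in the LFD mice and at 143, 233 and 274 CPM in the HFD mice, an overlap. Along the axis without HFD mouse 1, 36 of the adjoining genes were tested, 19 above and 17 below 0, and 1 was called on the pericentral and 4 on the periportal side, beside 3.13% and 3.32% of all genes. Got1, an aspartate aminotransferase that also accepts cysteine sulfinate, fell toward the central side by 0.84 (adjusted p = 0.00689, limma voom), Ftcd of folate metabolism by 0.79 (adjusted p = 0.00623), Gldc of glycine cleavage by 1.16 (adjusted p = 0.00554) and Tstd1, a thiosulfate sulfurtransferase-like gene, by 1.26 (adjusted p = 0.0160). Chpt1, a cholinephosphotransferase, rose by 0.66 (adjusted p = 0.0389). In 5 mice none of 32 was called by limma voom.

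For the 3 members with most UMIs, the genes whose level moved most alike over the 15 bins of the 3 large mice were looked up among 1157 genes, each centred within its mouse. For Mat1a these were Aurkaip1 (r = 0.79), Uqcrh (0.73) and Arl1 (0.73). For Gnmt they were Gnl3 (0.67), Tmem59 (0.67) and Tmbim4 (0.63), and for Bhmt Gpx1 (0.75), F13b (0.74) and Nudt7 (0.73). Bins of a mouse share a library and depth, and the highest of many correlations over 15 points is high by selection, so these are a description.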

How the data were processed

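Hepatocytes of 2 LFD and 3 HFD mice were profiled by Drop-seq. The unsmoothed table deposited by the authors holds the natural log of 1 plus UMIs per 10000 UMIs of a cell, as its values show. Back-transformed values total 10000 in each cell and are whole UMIs (100% of them, tolerance 0.001). A second table, of smoothed values that the authors deposited, was read on the same natural log scale and served only as an alternative. STAR 2.6.0a and mm10 are named per the submitters' processing notes. The cell filter, annotation and handling of strand, shared reads and doublets were not given in the sources used here. No doublet caller was run.

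Cells were given to mice by the prefix of their column names. Sides of the axis are the cells above and below the median of log((pericentral + 1)/(periportal + 1)) score UMIs in each mouse. UMIs were summed per mouse, or per mouse and side of the lobule axis, with trimmed-mean factors. They were tested with limma 3.58.1 (voom, R 4.3.3), Benjamini-Hochberg adjusted p under 0.05 being a call. For diet, a gene was kept at 32.4 CPM (10 UMIs in a library of median size) in 2 mice with 15 UMIs in all. For the axis, with mouse as a block, it was 66.4 CPM in 5 sums. A low complexity barcode held fewer genes than fitted for its UMIs by over 0.5 on the log2 scale (9 barcodes). No other barcode was more than 0.30 below the fit. Shares were compared by exact permutation over mice (SciPy 1.17.1), with Clopper-Pearson intervals. The level of 3 counts, which a count of 0 allows, is from 4.57 CPM (HFD mouse 2) to 108 CPM (HFD mouse 1).

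All 10 members are named. From each adjoining list the called genes (at most 3 of smallest p) or the 2 of highest mean CPM are named. The members and lists were chosen with earlier results of these data known. Alternatives covered normalization, filters, test, cells, mice, axis division and score lists.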

Additional observations from a re-analysis of the deposited data

How the results depend on the processing

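Over the alternative settings, 127 of the members' diet values kept direction and side of the threshold, 17 changed sign and 5 came to pass the threshold. Of the axis values 121 kept both, 7 changed sign and 5 came to pass. Of the interaction values 118 kept both and 15 changed sign. Of the shares 58 kept direction and 12 changed sign. Shares and smoothed values were judged by direction only, since no share can pass the threshold in this design. The count of genes called for diet (8) was 2 with no filter and without the 5% of cells with most UMIs, 16 with a minimum of 50 UMIs, 0 with limma-trend, 14 on the mean of the deposited log values, and 0 to 123 leaving out single mice. Same-numbered mice correlated by only 0.03 and 0.07 in their deviations, so numbers were not shown to pair mice. The deviations of the 2 LFD mice from their mean mirror each other, so this check cannot settle whether mice were paired. With the replicate block the diet count was 23, and Csad passed (2.58, adjusted p = 0.0295, limma voom). No LFD mouse has the number of HFD mouse 3, so with this block HFD mouse 3 does not bear on the diet value. HFD mouse 3 is the HFD mouse with Csad within the LFD range, and without it the Csad value was 2.51. The block therefore adds no support for Csad. The axis count (0) was 6 with a minimum of 50 UMIs, 4 without the deepest cells and with the outer cells of the axis only, and 0 to 132 leaving out single mice, and the interaction count 0 to 2. Without the low complexity barcodes, chosen after seeing the data, the counts were 35 and 12 and the members' median for diet was -0.40.

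Signs that turned belong to values that passed no test, and the cause was not tested. For diet, Bhmt2 was -0.18 with no filter, -0.14 with limma-trend, -0.063 with the replicate block and -0.0047 in the smoothed table, Cdo1 -0.075, -0.11, -0.20 (low complexity), -0.036 (deposited means) and -0.016 (smoothed), and Cbs 0.25 (limma-trend), 0.28 (deepest cells), 0.064 (deposited means) and 0.83 (block). Leaving out single mice gave -0.11 to 0.21, -0.21 to 0.26 and -0.53 to 0.80 for these. For the axis, Mat1a was 0.057 by library size and 0.029 at 50 UMIs, Pemt 0.023 at 50 UMIs and Ahcy 0.22 without low complexity barcodes, with -0.10 to 0.0080, -0.91 to 0.090 and -1.36 to 0.32 leaving out mice. For the interaction, Bhmt was 0.46 (50 UMIs), 0.12 (deepest cells), 0.35 (outer cells), 0.023 (core score lists) and 0.17 (low complexity), Csad -0.68 (outer cells) and -0.39 (low complexity), Cdo1 0.033 (core lists) and Cth 0.17 (low complexity). Leaving out mice gave -0.46 to 0.014 for Mat1a, -1.14 to 0.64 for Bhmt, -0.16 to 0.68 for Cbs, -1.93 to 0.22 for Cth, -1.31 to 0.018 for Cdo1 and -0.10 to 2.13 for Csad. For shares (HFD minus LFD, percentage points), thinning to 1000 UMIs gave 8.28 for Mat1a, -5.27 for Bhmt2, 10.3 for Cbs, 0.835 for Cdo1 and 11.3 for Pemt, and no thinning -2.12 for Bhmt2, 1.10 for Cdo1 and -0.401 for Csad. Leaving out mice gave -6.30 to 3.70 for Mat1a, -18.1 to 4.71 for Cbs, -14.7 to 4.47 for Cdo1 and -3.98 to 20.4 for Csad. HFD mouse 1 (27903 UMIs) and HFD mouse 3 (58470 UMIs) limit what 5 mice can show.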
